A study of Arabidopsis thaliana with 6 samples.

Results

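The 10 genes described here encode the gibberellin biosynthesis enzymes of Arabidopsis, taken by locus from the 33602 genes of the count files and the 25005 genes of the authors' deposited table: GA1, GA2, GA3, KAO1, KAO2, GA20OX1, GA20OX2, GA20OX3, GA3OX1 and GA3OX2. RNA came from whole 1-day-old seedlings of wild-type Col-0 and of the vil1 mutant line vil1-1, with 3 libraries of each genotype. Both genotypes had 3 days of stratification at 4 °C in the dark and were then grown at 22 °C under 16 h of light and 8 h of dark. VIL1 encodes a PHD finger protein that works with Polycomb repressive complex 2, and the sources used here do not give the kind of mutation in vil1-1. The question was how transcript levels of these enzymes compare between mutant and wild type at this age.

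Gibberellins are diterpenoid hormones that promote germination, and the last steps of their synthesis set how much active hormone a seed makes. The pathway starts in the plastid, where GA1 (ent-copalyl diphosphate synthase) and GA2 (ent-kaurene synthase) build ent-kaurene from geranylgeranyl diphosphate. The cytochrome P450 enzymes GA3 (ent-kaurene oxidase), KAO1 and KAO2 (ent-kaurenoic acid oxidases) turn it into the first gibberellin. Soluble dioxygenases finish the work, first the GA20-oxidases and then the GA3-oxidases, which make the bioactive form. In Arabidopsis seeds light acts through phytochrome to raise GA3OX1 and GA3OX2, and active gibberellin lowers some GA20OX and GA3OX transcripts by feedback.

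The libraries held 46917 to 66546 gene counts, so a single count was worth 15.0 to 21.3 CPM, counts scaled to a library total of 1000000. A count of 0 allowed up to 3 counts, or 45.1 to 63.9 CPM per library, for counting error only. VIL1 had 0 counts in all 6 libraries, which leaves the genotype labels unchecked by the counts, and the authors' deposited table gave it a log2 fold change of -0.91 (adjusted p = 0.000309). Of the 10 enzyme genes, 6 had a count in at least 1 library, 4 had none, and GA3OX2 was the 1 that passed edgeR's filter on low counts. All 10 are in the authors' deposited table, whose log2 fold changes are given as vil1-1 over Col-0 and whose p-values were adjusted here over its 25005 genes by the Benjamini-Hochberg method. The sources used here do not give the number of libraries behind that table.

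GA20OX2 and GA20OX3, which encode GA20-oxidases, rose in vil1-1 in the authors' deposited table, and none of the other 8 enzyme genes passed the adjusted p of 0.05 there in either direction. These 2 of 10 stand beside 7.13% of all genes called in that table, 3.56% higher and 3.58% lower. The 10 genes had a median log2 fold change of 0.13 in the authors' deposited table, against -0.05 over all its genes. The median over all genes includes 4191 at or below the level of GA1, of which 0 were called. The medians were not tested against each other. Both called genes encode the same enzymatic step, and the genes for the steps before and after it were not called. Whether the GA20OX differences were larger than those of the other steps was not tested.

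GA20OX3 (AT5G07200, chromosome 5, 2243553 to 2245339, minus strand, 3 exons, TAIR10.1) had the larger difference, with a log2 fold change of 1.74 (SE 0.43, adjusted p = 0.00122 from the authors' deposited table). This is 3.35-fold, with a 95% interval of 1.88 to 5.96-fold computed from the log2 fold change and F in that table. GA20OX2 (AT5G51810, chromosome 5, 21055179 to 21056881, minus strand, up to 3 exons) followed at 1.46 (SE 0.39, adjusted p = 0.00413 from the authors' deposited table), or 2.75-fold with an interval of 1.62 to 4.65-fold. Both sat at a low level, with a mean of 3.86 CPM for GA20OX3 and 4.33 CPM for GA20OX2 in the authors' deposited table. The p-values of that table make no allowance for a small number of libraries. The intervals computed from it make none either and may be too narrow.

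GA20OX1 (AT4G25420, chromosome 4, 12990851 to 12992585, minus strand), the family member best known from stem elongation, had a log2 fold change of 0.69 (SE 0.27) at 7.78 CPM in the authors' deposited table. Its unadjusted p there was 0.00963 and its adjusted p 0.103, so it missed the threshold. The interval of 1.12 to 2.33-fold from the authors' deposited table overlaps those of GA20OX2 and GA20OX3, and the 3 paralogues were not shown to differ from one another. All 3 GA20-oxidase genes had 0 counts in all 6 libraries. Over the 6 libraries the levels of the authors' deposited table lead to 2.64 expected counts for GA20OX1, 1.47 for GA20OX2 and 1.31 for GA20OX3. Counts of 0, with an exact Poisson upper limit of 3.69, could therefore not show whether these genes differed.

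Genes between the levels of these 3 genes give a second background. Between the mean levels of GA20OX3 and GA20OX1, 1.95 to 2.96 log2 CPM, the authors' deposited table holds 2921 genes, of which 174 (5.96%) were called and 74 (2.53%) called higher. A log2 fold change at least as high as that of GA20OX2 was found for 26 (0.89%) of these 2921 genes of the authors' deposited table. GA20OX2 and GA20OX3 are themselves among these 26 and among the 74 called higher. GA20OX3 marks the lower edge of this band, so the other genes lie at its level or above. The SE was 0.43 for GA20OX3 at that edge and 0.27 for GA20OX1 at the upper edge. The cut was the value of GA20OX2 itself, so the 0.89% describes the band and is no test. Of the same 2921 genes 36.6% had 0 counts in all 6 count files, as the 3 GA20-oxidase genes had.

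The 250 bases before the annotated start of each GA20-oxidase gene are shown because this is the step at which 2 genes were called and 1 was not. They were read from TAIR10.1 by the RefSeq annotation, on the minus strand, and cover chr5:21056882-21057131 for GA20OX2, chr5:2245340-2245589 for GA20OX3 and chr4:12992586-12992835 for GA20OX1. Capitals mark matches to any of the 7 motifs searched on both strands.
GA20OX2: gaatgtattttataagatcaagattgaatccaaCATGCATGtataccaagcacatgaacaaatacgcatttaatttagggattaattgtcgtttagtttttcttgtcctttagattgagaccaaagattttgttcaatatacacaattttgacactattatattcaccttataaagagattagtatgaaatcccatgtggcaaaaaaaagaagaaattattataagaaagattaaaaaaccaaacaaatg
GA20OX3: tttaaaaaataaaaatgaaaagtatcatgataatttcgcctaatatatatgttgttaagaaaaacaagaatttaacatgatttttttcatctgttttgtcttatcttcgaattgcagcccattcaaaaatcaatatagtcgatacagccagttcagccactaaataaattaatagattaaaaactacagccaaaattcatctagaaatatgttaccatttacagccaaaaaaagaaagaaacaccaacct
GA20OX1: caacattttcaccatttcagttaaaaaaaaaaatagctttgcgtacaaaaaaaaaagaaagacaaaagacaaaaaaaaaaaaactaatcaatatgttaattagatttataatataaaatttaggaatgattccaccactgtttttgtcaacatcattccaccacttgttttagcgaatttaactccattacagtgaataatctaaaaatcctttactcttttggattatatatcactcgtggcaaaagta

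The motifs were the RY core CATGCA, which seed B3 factors read, and the core of abscisic acid response elements, ACGTG. The G-box, CACGTG, contains that core. The evening element was searched as AAAATATCT and the telobox as AAACCCTA. The last 2 were a gibberellin response element, searched as TAACAAA, and a repeat of the kind found at many plant Polycomb target genes, searched as GAGAGA. Only the RY core matched in these 3 windows, and only in GA20OX2, on both strands at overlapping positions that begin 217 and 215 bases before the start. The RY core occurs in 8.43% of the 27443 nuclear protein-coding windows of that length and in 2 of the 10 enzyme genes, the other being GA1. The GA1 window also held the GAGA repeat, as did 20.6% of all windows, and the GA2 window the abscisic acid response core, as did 22.9%. The G-box is found in 6.49% of all windows, the evening element in 2.36%, the gibberellin response element in 16.1% and the telobox in 4.49%, and none of these 4 in any enzyme window. GA20OX2 and GA20OX3 had no searched motif in common.

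**Figure D1:**
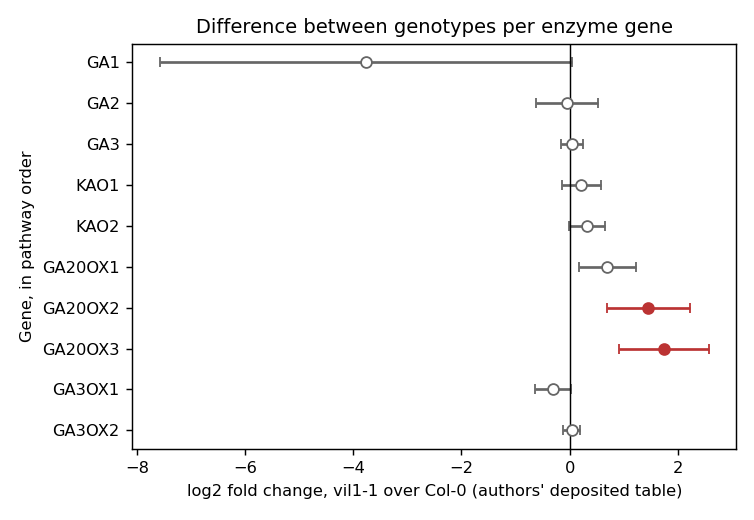
Log2 fold change (vil1-1 relative to Col-0) in the authors' deposited table for the 10 enzyme genes in pathway order, with 95% intervals as bars. Filled red points passed an adjusted p of 0.05: GA20OX2 at 1.46 and GA20OX3 at 1.74 lie to the right of 0, and the bar of GA1 spans more than any other.

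GA3OX2, which encodes a GA3-oxidase for the last step, was by far the most abundant enzyme transcript per length of exon, and it stood at much the same level in both genotypes. GA3OX2 (AT1G80340, chromosome 1, 30200466 to 30202349, minus strand, 2 exons) was counted 327, 412 and 307 times in the Col-0 libraries and 343, 248 and 356 times in the vil1-1 libraries, each in the order of replicates 1 to 3. Scaled to library totals these are 6692, 6191 and 4756 CPM for Col-0, and 7311, 5026 and 5624 CPM for vil1-1. The ranges of the genotypes overlap between 5026 and 6692 CPM, and the highest and the second-lowest library are both vil1-1.

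The mean GA3OX2 level was 5879 ± 1005 CPM (SD, n = 3) for Col-0 and 5987 ± 1185 CPM (SD, n = 3) for vil1-1. The log2 fold change was 0.04 (SE 0.13, edgeR quasi-likelihood adjusted p = 0.942 over 942 genes), beside 3.72% of those genes called in either direction. Its 95% interval ran from 0.86 to 1.23-fold, so a larger difference in either direction lies outside it. The authors' deposited table gave 0.03 (SE 0.08, adjusted p = 0.86), with an interval of 0.92 to 1.14-fold. The sign of the value from the counts depended on single libraries, from -0.13 without vil1-1 replicate 1 to 0.16 without vil1-1 replicate 2, and it was called in none of the settings tried.

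**Figure D2:**
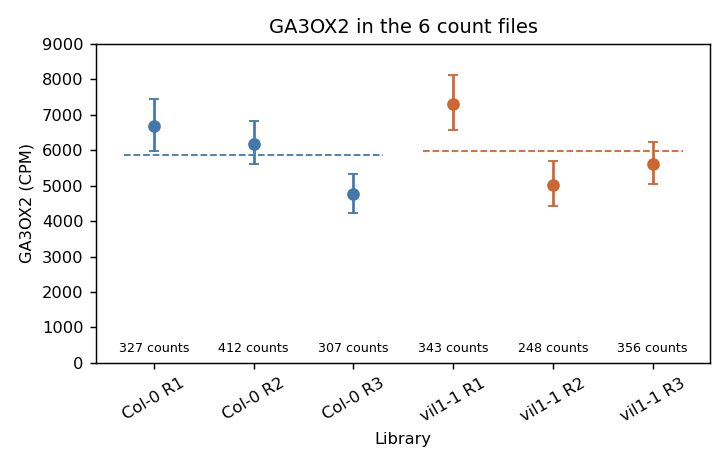
GA3OX2 in CPM in each of the 6 count files, Col-0 in blue and vil1-1 in orange, with exact 95% binomial intervals as bars, the group means as dashed lines and the raw counts along the base. The libraries lie between 4756 and 7311 CPM and the genotypes overlap.

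The level of GA3OX2 differed between the count files and the authors' deposited table. It took 0.48% to 0.73% of all counts in a library and ranked between 9 and 15 among the 33602 genes of each count file. By mean level it ranked 589 of 25005 in the authors' deposited table, at 254 CPM. The mean of the count files was 23.4 times that level, where the median ratio was 1.31 over the 1711 genes with at least 30 counts, and 95% of those genes lay at or below 11.7. GA3OX2 ranked 11 by this ratio. The sources differed in other genes as well, in both directions. The quartiles of the ratio were 0.67 and 3.42, and 5% of those genes lay at or below 0.35. Of the 25005 genes of the authors' deposited table, 10137 had 0 counts in all count files. From the level in the authors' deposited table, 86.2 counts would be expected over the 6 libraries, and 1993 were found (exact Poisson 95% interval 1906 to 2082). Its share of a library therefore describes the count files alone, while the difference between genotypes, 0.04 from the counts and 0.03 in the authors' deposited table, was within its SE of 0 in both.

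No other place in the TAIR10.1 genome held any of the 1430 distinct stretches of 30 bases in the GA3OX2 transcript. Its neighbours did not share its level in the count files: GA3OX4, which ends 928 bases away and encodes a related GA3-oxidase, had 2 counts in all, and ERH3, a katanin gene 2964 bases away on the other side, had 22. In aligned bases the GA3OX2 transcript was 66.2% identical to GA3OX4 and 74.0% to GA3OX1. Why the sources differ in this gene and in others was not tested.

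GA3OX1 (AT1G15550, chromosome 1, 5344388 to 5346342, minus strand, 2 exons), the GA3-oxidase gene under gibberellin feedback, was counted 1, 1 and 2 times in the Col-0 libraries and 0 times in each vil1-1 library. The genotypes did not overlap, with every Col-0 library above every vil1-1 library. Among genes with a count in any library 3.33% were separated in this direction, and among the 1067 genes with 4 counts in all 3.94% were. The exact two-sided permutation test gave p = 0.10, the smallest that 3 against 3 libraries allow. With 4 counts against 0, no size of difference was resolved. The authors' deposited table gave a log2 fold change of -0.31 (SE 0.17, adjusted p = 0.345) at 20.5 CPM, which was not called and whose interval of 0.64 to 1.02-fold includes no change.

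The genes for the earlier steps were not called, and their intervals were narrow only for GA3. GA3 (AT5G25900, chromosome 5, 9035817 to 9038423, plus strand, 7 exons), the ent-kaurene oxidase gene, was counted 2, 6 and 3 times in the Col-0 libraries and 1, 5 and 5 times in the vil1-1 libraries. Both groups summed to 11 counts, and the libraries overlapped (exact permutation p = 0.9). GA3 had a log2 fold change of 0.04 (SE 0.11, adjusted p = 0.865) at 76.2 CPM in the authors' deposited table, with an interval of 0.89 to 1.19-fold. The count files held 22 counts of GA3 where 25.9 would be expected from that level, within the exact Poisson interval of 13.8 to 33.3.

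KAO1 and KAO2 encode enzymes with the same activity. KAO1 (AT1G05160, listed as CYP88A3 by RefSeq, chromosome 1, 1487378 to 1491005, minus strand) had 1 count in Col-0 replicate 1 and 1 in vil1-1 replicate 3. KAO2 (AT2G32440, chromosome 2, 13774588 to 13778026, plus strand) had 1 count in Col-0 replicate 2 and 1 in vil1-1 replicate 2. Their log2 fold changes in the authors' deposited table were 0.22 (SE 0.19, adjusted p = 0.609) for KAO1 and 0.32 (SE 0.17, adjusted p = 0.302) for KAO2. The intervals from the authors' deposited table, 0.90 to 1.49-fold and 0.995 to 1.57-fold, leave room for modest rises. Each transcript held 2 stretches of 30 bases found elsewhere in the genome, 0.0949% of those of KAO1 and 0.104% of those of KAO2, and the other 8 enzyme transcripts held none.

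GA2 (AT1G79460, chromosome 1, 29890367 to 29894646, plus strand), the ent-kaurene synthase gene, had a single count, in vil1-1 replicate 1. The authors' deposited table gave it -0.05 (SE 0.29, adjusted p = 0.962) at 6.56 CPM, with an interval of 0.65 to 1.44-fold. GA1 (AT4G02780, chromosome 4, 1237671 to 1244822, minus strand), the gene for the first committed step, had 0 counts in every library. Its log2 fold change of -3.77 (adjusted p = 0.296) was the most negative of the 10 in the authors' deposited table, yet its interval ran from -7.58 to 0.04. GA1 lay near the bottom of the authors' deposited table, at -0.16 log2 CPM where the lowest value, shared by 690 genes, was -0.54. At or below the level of GA1 that table holds 4191 genes and calls 0 of them, so the fold change of GA1 cannot be read as a size.

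**Figure D3:**
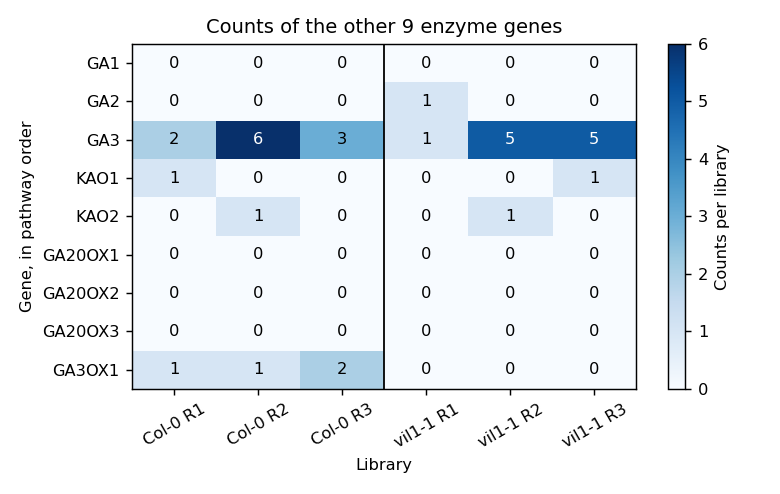
Counts per library of the 9 enzyme genes other than GA3OX2, rows in pathway order and libraries in columns, with a line between Col-0 and vil1-1. GA3 holds most of the counts, GA3OX1 has counts in Col-0 libraries alone, and 4 genes are at 0 throughout.

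Per length of exon, the levels in the authors' deposited table were ordered with GA3OX2 first at 174 CPM per kb, then GA3 at 39.5 and GA3OX1 at 13.5 CPM per kb. KAO2 (10.5 CPM per kb), KAO1 (7.68) and GA20OX1 (5.04) followed in that table. GA20OX2, GA2 and GA20OX3 lay between 2.40 and 2.78 CPM per kb, and GA1 was last at 0.34 CPM per kb, all in the authors' deposited table. GA3OX2 thus stood 4.41 times above the next gene per length, and GA20OX3 stood 7.15 times above GA1. That table gives 1 mean per gene and no spread over libraries, so neighbours in this order could not be tested. In the count files GA3OX2 was again first, at 4067 CPM per kb, and GA3 second at 32.7 CPM per kb. The other 4 detected enzyme genes lay between 1.34 and 7.28 CPM per kb in the count files, each resting on 4 counts or fewer.

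**Figure D4:**
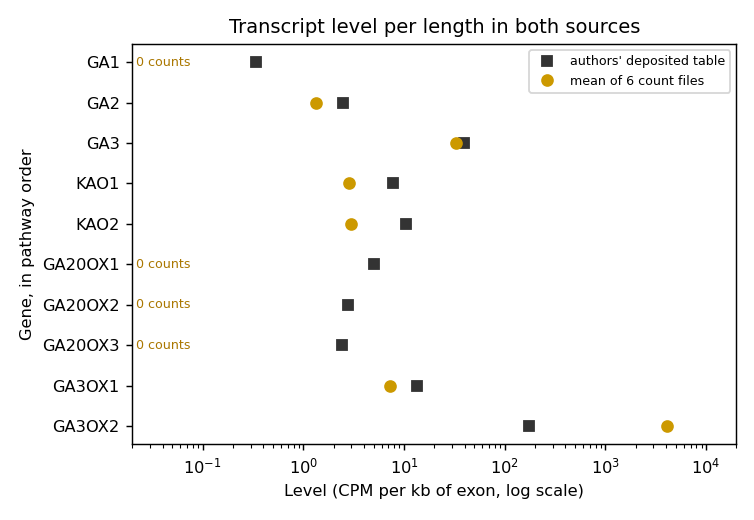
Level per kb of exon on a log axis for the 10 enzyme genes, black squares for the authors' deposited table and yellow circles for the mean of the 6 count files. The sources lie close together for GA3 and far apart for GA3OX2, which is at 174 in the table and 4067 in the counts.

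Other genes of the pathway were taken from lists by role. Among 4 further GA20- and GA3-oxidase paralogues 3 are in the authors' deposited table and 0 were called, with GA3OX4 at 1.42 (SE 0.76, adjusted p = 0.322) and GA20OX5 at -2.59 (SE 2.19, adjusted p = 0.597), both below 2 CPM. Inactivation genes, which encode GA2-oxidases, methyltransferases and 2 cytochrome P450 enzymes, had a median of -0.02 and 0 of 9 called in the authors' deposited table. The most abundant of them there were GA2OX2 at 0.08 (SE 0.37) and GA2OX6 at 0.44 (SE 0.50). Plastid isoprenoid precursor genes, which supply the substrate of GA1, had 0 of 8 called and a median of -0.12 in the authors' deposited table. DXS, for the entry enzyme of the plastid precursor pathway, had -0.21 (adjusted p = 0.201) and GGPPS11, the geranylgeranyl diphosphate synthase gene, 0.19 (adjusted p = 0.322) in the authors' deposited table. With 7.13% of all genes called in that table, 0 called in lists of 3, 9 and 8 genes cannot be told from that share. Some listed genes, GA20OX5 among them, lay below the level of GA1, where that table called 0 genes.

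For the next 3 lists the background is again 7.13% of all genes called in the authors' deposited table, 3.56% higher and 3.58% lower. Perception genes had 3 of 10 called in the authors' deposited table, all higher: the DELLA repressor genes RGL3 at 1.02, RGL2 at 0.97 and GAI at 0.49 (adjusted p = 0.00988 for GAI). RGL3 was counted 1, 0 and 0 times in Col-0 and 0, 0 and 3 times in vil1-1. RGL2 stood at 1, 0 and 3 against 2, 7 and 1, and GAI at 0, 2 and 2 against 1, 3 and 1. None of them passed the filter on low counts, so the count files did not resolve these differences. GASA genes, many of which respond to gibberellin, had 2 of 7 called, GASA6 at 1.30 and GASA1 at 0.46, both higher in the authors' deposited table. GASA1, with 17 counts in all, did not pass the filter on low counts. In the counts GASA6 stood at 6, 4 and 8 in Col-0 and 9, 9 and 16 in vil1-1, with a log2 fold change of 1.08 that was not called (edgeR adjusted p = 0.218). The median of the GASA list in the authors' deposited table was -0.08, below 0 although its called members rose.

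Known seed regulators of the biosynthesis genes had 3 of 12 called in the authors' deposited table, of which 2 were higher. SOM, a zinc finger gene whose product lowers GA3OX1 and GA3OX2 in imbibed seeds, rose by 2.10 (SE 0.14), and the photoreceptor gene PHYA by 0.38 (SE 0.08), in the authors' deposited table. BME3, a GATA factor gene that promotes germination, fell by 0.41 on the log2 scale (SE 0.11, adjusted p = 0.00328 from the authors' deposited table). SOM was counted 2, 1 and 1 times in the Col-0 libraries and 1, 3 and 1 times in the vil1-1 libraries. The count files therefore did not resolve the difference of SOM. BME3, with 20 counts in all, did not pass the filter on low counts. In the counts PHYA stood at 4, 14 and 16 in Col-0 and 10, 8 and 14 in vil1-1. The log2 fold change of PHYA from the counts was 0.10 and was not called (edgeR adjusted p = 0.942). Beside the rise of SOM, GA3OX2 had 0.03 and GA3OX1 -0.31 in the authors' deposited table, neither of them called.

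**Figure D5:**
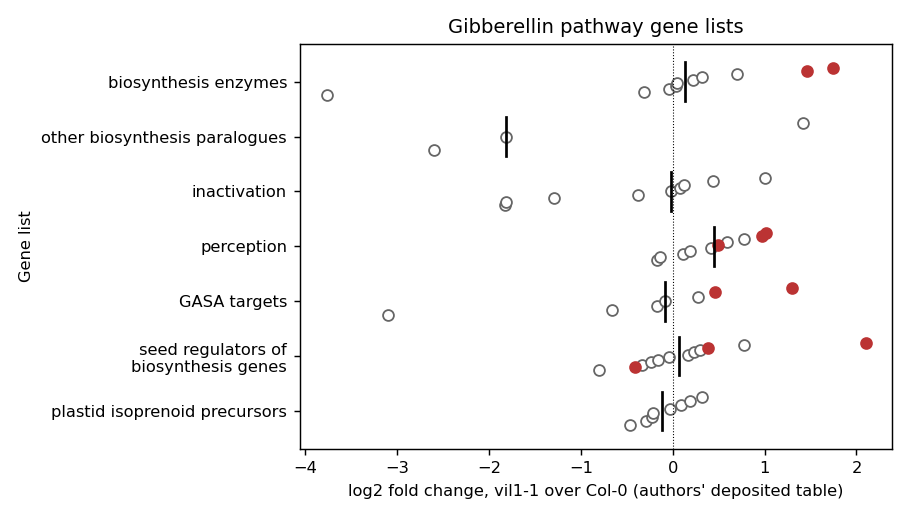
Log2 fold change (vil1-1 relative to Col-0) in the authors' deposited table for each gene of 7 gibberellin lists, with list medians as black bars and genes past an adjusted p of 0.05 as filled red points. Called genes are seen among the enzymes, perception genes, GASA targets and seed regulators, and SOM lies farthest right at 2.10.

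Some markers of tissues within the seedling were also called in the authors' deposited table. Of 5 endosperm markers, 2 were called higher in the authors' deposited table, EXPA2 at 1.07 and MAN7 at 1.14, beside 3.56% of all its genes called higher. EPR1, an extensin-like gene, was not called there, at 0.14 (adjusted p = 0.384 from the authors' deposited table), and NCED6 and ZOU had 0 counts. Summed endosperm marker levels in the count files were 286 to 451 CPM in Col-0 and 661 to 774 CPM in vil1-1. That difference was one of EXPA2, counted 8, 21 and 15 times in the Col-0 libraries and 31, 29 and 42 times in the vil1-1 libraries. EXPA2 was called higher in the counts too, at 1.39 (edgeR adjusted p = 0.000227). It is a gene known to respond to gibberellin, and whether this has a part in its difference was not tested. EPR1 was counted 4, 9 and 5 times in the Col-0 libraries and 0, 8 and 6 times in the vil1-1 libraries, and MAN7 3 times in all. None of 6 seed coat markers was called in the authors' deposited table, where MUM4 had -0.21 and MUM2 0.10. BAN, TT12, TT10 and TT2 were at 0 counts, and the sum was 75.1 to 139 CPM in Col-0 and 40.5 to 111 CPM in vil1-1.

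Of 4 cortex and endodermis markers the authors' deposited table called CO2 higher (1.74) and JKD lower (-0.62), beside 7.13% of all its genes called. Their summed counts overlapped, at 164 to 186 CPM in Col-0 and 79.0 to 192 CPM in vil1-1, with no marker at 0. CO2 had 2 counts in all and JKD 7. Of 4 vascular markers SUC2 was called higher (0.52) in the authors' deposited table, beside 3.56% of all its genes called higher. Summed vascular counts also overlapped, at 40.9 to 150 CPM in Col-0 and 101 to 205 CPM in vil1-1, with PXY and WOX4 at 0. The part of these tissues in the rise of GA20OX2 and GA20OX3 was not tested, and in whole seedlings more cells of a type and more RNA per cell cannot be told apart.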

How the data were processed

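Counts per gene were deposited as whole numbers, 1 file per library, without normalization. The submitters' processing notes name the TAIR10 build and the tools Bowtie2, featureCounts and edgeR without versions or order. The sources used here do not say whether counting used strand or multi-mapping reads. The authors' deposited table holds for each gene, per the file headers, a log2 fold change, the mean level as log2 CPM, the test's F score and its p-value. Its standard errors were computed here by dividing the size of a log2 fold change by the root of its F, with normal 95% intervals (1.96 SE). For the enzyme genes, its p-values match those of a chi-square distribution with 1 degree of freedom for F. GA20OX3 had p = 4.14e-05 in the authors' deposited table and 4.13e-05 from that chi-square distribution. Such p-values and normal intervals make no allowance for a small number of libraries.

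Counts were tested with edgeR 4.0.16 in R 4.3.3 (quasi-likelihood F test, TMM, filterByExpr, genotype as the only term, Benjamini-Hochberg adjusted p under 0.05). On 5 simulated data sets of this comparison the code recovered 84.7% of genes changed 2-fold and 99.3% of those changed 4-fold. Of the genes called there, 4.39% were unchanged. Each set had 200 changed genes, with 869 tested, and 1 dispersion (0.00991) for every gene. In the data 35 of 942 genes were called, so these shares check the code and do not give the power of the comparison. Enzyme genes under the filter were given as counts with exact permutation tests. The series design text calls the replicates biological. Alternatives were DESeq2 1.42.0, limma-voom 3.58.1, other normalizations and filters, the replicate block and left-out libraries. Named genes were all members and, of each other list, up to 4 called in the authors' deposited table or else the 2 most abundant there, plus the neighbours of GA3OX2. The members, lists and motifs were chosen with earlier results of these data known. Locus coordinates and windows are RefSeq TAIR10.1, in which all 10 loci matched. Protein sequences were not used here.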

Additional observations from a re-analysis of the deposited data

How the results depend on the processing

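From the counts edgeR called 35 of 942 genes, 26 higher and 9 lower in vil1-1. DESeq2 called 8, no filter on low counts left 21, and leaving out Col-0 replicates 2 and 3 together left 7. Without 1 library at a time the count ran from 19, without vil1-1 replicate 2, to 36, without vil1-1 replicate 1. GA3OX2 was not called in any of 15 alternative settings. Its log2 fold change turned negative with CPM above 1 in at least 3 libraries (-0.0077) and without Col-0 replicates 2 and 3 (-0.13), and ran from -0.13 to 0.16 with 1 library left out. The cause of these changes was not tested. With the replicate number as a block, edgeR called 34 genes and GA3OX2 had 0.04. Deviations of same-numbered libraries had correlations of 0.079, -0.033 and 0.019. At this depth counting error could hide a shared batch, so these values cannot show whether such libraries share one. The main adjustment of the authors' deposited table called 1784 genes and 2 enzyme genes. Holm adjustment, which is stricter by construction, left 629 genes and 0 enzyme genes. Restricting the table to genes with at least 1 count also left 0 enzyme genes called, since GA20OX2 and GA20OX3 have no counts and were not among those tested. With a mean log2 CPM of at least 0, 2 enzyme genes were called, as in the full table. Depth limits the counts to GA3OX2, as every other enzyme gene had 22 counts or fewer over 6 libraries.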
